A study of Sus scrofa with 36 samples.

Results

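The genes of cholesterol metabolism described here were measured in pig liver and are HMGCS1, SQLE, LSS, FDFT1, FDPS, CYP51A1, SREBF2 and INSIG1. They were chosen by name, and a probe was kept when its signal was well above background on at least 6 of the 36 arrays. All 8 genes had a kept probe, out of 10536 named genes that did, and 20 of their 21 probes were among the 44796 kept probes of the array. The 36 animals were castrated male growing pigs of 3 breed groups, Large White (LW), Créole (CR) and their cross (F1), with 12 animals each. In each breed group 6 pigs were killed in thermoneutral conditions at 24 °C (TN) and 6 in heat stress (HS), so that there were 6 groups of 6. The labels give 30 °C for the HS pigs and the growth protocol gives 32 °C for 5 days, and HS is used here for both. The study asked how short heat exposure changed gene expression once breed was taken into account. TN pigs were killed before the heat began, and the effects of heat, of slaughter day and of a few days of added age cannot be told apart. The study also reported a lower feed intake in the heat, and its effect cannot be told apart from that of heat. The animals of each breed group came from 3 blocks of littermates that the labels do not name, so relatedness was not modelled. The tests treat the 12 pigs of a breed group as independent, so SEs and p-values between breeds may be too small. In the study each pen and each slaughter day held pigs of a single temperature. The heat tests treat the 18 pigs of a temperature as independent, so their SEs and p-values may be too small as well.

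The liver makes cholesterol from acetyl-CoA through the mevalonate pathway. SREBF2 encodes a transcription factor (SREBP2) that is held in the endoplasmic reticulum with SCAP and INSIG proteins while sterols are plentiful, and that moves to the nucleus and switches on the pathway's enzymes when sterols run low. INSIG1 is both a retention factor for this complex and a target of it. HMGCS1 makes HMG-CoA at the entry to the pathway, FDPS makes farnesyl diphosphate, and FDFT1 joins farnesyl units into squalene. SQLE, LSS and CYP51A1 then oxidise squalene, close the sterol rings and remove a methyl group from lanosterol. None of the 8 genes encodes an uptake receptor, so uptake is described below through a list of related genes.

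On assembly Sscrofa11.1, HMGCS1 lies at chr16:27936225-27957261, FDPS at chr4:94500140-94514820 and FDFT1 at chr14:14976259-15010701. SQLE lies at chr4:14669789-14700152, CYP51A1 (listed as CYP51) at chr9:72057506-72079587, SREBF2 at chr5:6719484-6784724 and INSIG1 at chr18:2885494-2898758. LSS lies on an unplaced sequence. Each probe is a stretch of 60 bases, and the probes below are shown because they are the sites at which the genes were read, and they include both probes that passed the test between breeds. For SQLE, FDFT1, CYP51A1 and INSIG1 they are not the brightest probe of the gene, and no SREBF2 probe is shown. They are given 5′ to 3′ as the array's table prints them, in lower case throughout because no part is singled out.
HMGCS1 probe O9276: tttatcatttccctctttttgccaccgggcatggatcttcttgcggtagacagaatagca
SQLE probe O12690: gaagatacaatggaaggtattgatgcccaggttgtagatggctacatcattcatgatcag
LSS probe O7666: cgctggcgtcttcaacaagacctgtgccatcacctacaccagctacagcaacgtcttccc
FDFT1 probe A_72_P098361: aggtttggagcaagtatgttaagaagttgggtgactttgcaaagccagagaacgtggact
FDPS probe A_72_P212122: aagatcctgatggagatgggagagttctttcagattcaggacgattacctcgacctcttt
FDPS probe A_72_P661524: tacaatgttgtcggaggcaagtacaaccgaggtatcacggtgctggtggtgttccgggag
CYP51A1 probe A_72_P155691: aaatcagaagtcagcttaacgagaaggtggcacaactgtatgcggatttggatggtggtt
CYP51A1 probe A_72_P690508: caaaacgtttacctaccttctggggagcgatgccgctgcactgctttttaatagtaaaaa
INSIG1 probe A_72_P186291: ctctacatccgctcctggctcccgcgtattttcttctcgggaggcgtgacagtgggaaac
The HMGCS1 letters can be read without a stop on either strand, so open frames alone do not settle which strand O9276 reports, and no protein sequence was compared. As printed they look like the complement of the coding strand. In that case the probe would not report the mRNA, and all HMGCS1 values below are uncertain for this reason. The other HMGCS1 probe, A_72_P278614, was well above background on 4 arrays and was left out. The letters of FDPS probe O8700, not shown, can also be read without a stop on either strand. They too look like the complement of the coding strand, so the values of O8700 below are uncertain for the same reason. A pair of SQLE probes, A_72_P444903 and A_72_P088686, share 57 of 60 bases and are not separate evidence.

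HMGCS1 and LSS had 1 kept probe each and the other 6 genes had 2 to 4, and the probe with the highest mean signal over the 36 arrays was taken as the gene's main probe. Values are log2 normalised median signals, and levels are not compared between probes because each probe binds with its own strength. Across arrays, 39644 to 44025 spots were well above background and no spot was saturated. Hepatocyte markers were bright, at mean log2 signals of 16.23 (APOB) to 18.77 (ALB), and none of the 47 kept markers of 9 cell types passed the test between HS and TN. On the first principal component of all kept probes, 5 arrays stood apart from the other arrays of their breed. LW TN 1 and 6 scored -4.8 and -3.0, between the other LW arrays (-44.2 to -24.8) and the CR arrays (2.3 to 35.4). F1 HS 1 and 2 and F1 TN 3 scored -21.3 to -17.0, below the other F1 arrays (-1.3 to 36.9). Counts of calls without these 5 arrays are given where they change.

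None of the 8 genes passed the test for a change with heat stress. In limma's moderated test across all probes, 0 of the 20 probes had an adjusted p under 0.05 for HS minus TN, against 0.857% of all kept probes. At an unadjusted p under 0.05 the count was also 0 of 20, against 13.1% of all kept probes. The differences ranged from -0.21 to 0.15, with 9 of 20 above zero and a median of -0.05, against a median over all probes of 0.0012. Their 95% confidence intervals lay between -0.47 and 0.49 on the log2 scale, and shifts larger than these lie outside every interval. In whole-liver RNA, fewer cells of a type and less RNA per cell cannot be told apart.

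Among the enzymes of the first steps, the main HMGCS1 probe, O9276, had log2 signals of 5.11 to 6.76 in HS pigs (median 6.04) and of 5.23 to 7.37 in TN pigs (median 5.75). HS minus TN was 0.11 ± 0.15 (SE, adjusted p = 0.839), and 11 of 18 HS pigs lay above the TN mean of their breed. The signal is dim, being well above background on 32 of 36 arrays. FDPS, measured with A_72_P212122, ran from 12.31 to 13.91 in HS (median 13.16) and from 12.93 to 13.89 in TN (median 13.34). It had the smallest p of the 20 probes, with HS minus TN at -0.21 ± 0.11 (SE, unadjusted p = 0.0661, adjusted p = 0.429). The other 3 FDPS probes differed by -0.17 to -0.05, the last on O8700, whose strand is unsettled. FDPS values of HS and TN pigs overlapped, although 13 of 18 HS pigs lay below the TN mean of their breed.

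FDFT1 had a main probe, O10068, at 14.11 to 15.39 in HS pigs (median 15.08) and at 14.22 to 15.60 in TN pigs (median 14.82). HS minus TN was 0.14 ± 0.13 (SE, adjusted p = 0.722), and its second probe gave 0.12. SQLE signals on A_72_P444903 reached from 11.16 to 13.43 in HS (median 12.97) and from 12.01 to 13.56 in TN (median 12.74), a difference of 0.06 ± 0.16 (SE, adjusted p = 0.924). The lowest SQLE value belonged to CR HS replicate 5, at -1.72 from the mean of its group. HS and TN pigs overlapped for both genes.

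For LSS, which has a single probe, log2 signals were 5.998 to 6.79 in HS pigs (median 6.28) and 5.99 to 6.80 in TN pigs (median 6.38). The difference was -0.08 ± 0.07 (SE, adjusted p = 0.697), with 13 of 18 HS pigs below the TN mean of their breed. CYP51A1 on A_72_P177531 ran from 13.43 to 14.58 in HS (median 14.27) and from 13.81 to 14.62 in TN (median 14.13). Its 4 probes gave differences of -0.12 to -0.05, none called.

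The regulators gave differences of the same small size. SREBF2 on O8965 lay at 13.31 to 14.07 in HS pigs (median 13.68) and at 13.41 to 14.00 in TN pigs (median 13.68), a difference of 0.02 ± 0.06 (SE, adjusted p = 0.940). INSIG1 on A_72_P442208 lay at 10.17 to 12.23 in HS (median 11.10) and at 10.03 to 13.14 in TN (median 11.03), a difference of -0.08 ± 0.19 (SE, adjusted p = 0.910). The highest INSIG1 value was that of F1 TN replicate 3, and without this array the difference was 0.039. HS and TN pigs overlapped for both genes, as they did for all 20 probes.

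Over the 6 groups, the mean of HMGCS1 ran from 5.72 (F1 TN) to 6.09 (LW TN), with SDs of 0.30 to 0.68 (n = 6). SQLE means lay between 12.67 (CR TN) and 12.87 (CR HS), with SDs of 0.23 to 0.86. FDFT1 was lowest in F1 TN (14.71) and highest in F1 HS (15.06), with SDs of 0.24 to 0.54. In every one of these genes the distance between the lowest and the highest group mean was smaller than the largest SD of a group. The same held for LSS, from 6.30 (F1 HS) to 6.51 (LW TN) with a largest SD of 0.25, for FDPS, from 12.97 (F1 HS) to 13.41 (LW TN) with a largest SD of 0.57, and for CYP51A1, from 13.97 (F1 HS) to 14.27 (CR TN) with a largest SD of 0.42. SREBF2 ran from 13.53 (LW TN) to 13.78 (CR HS) with a largest SD of 0.26, and INSIG1 from 10.80 (CR TN) to 11.32 (F1 TN) with a largest SD of 0.94.

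**Figure D1:**
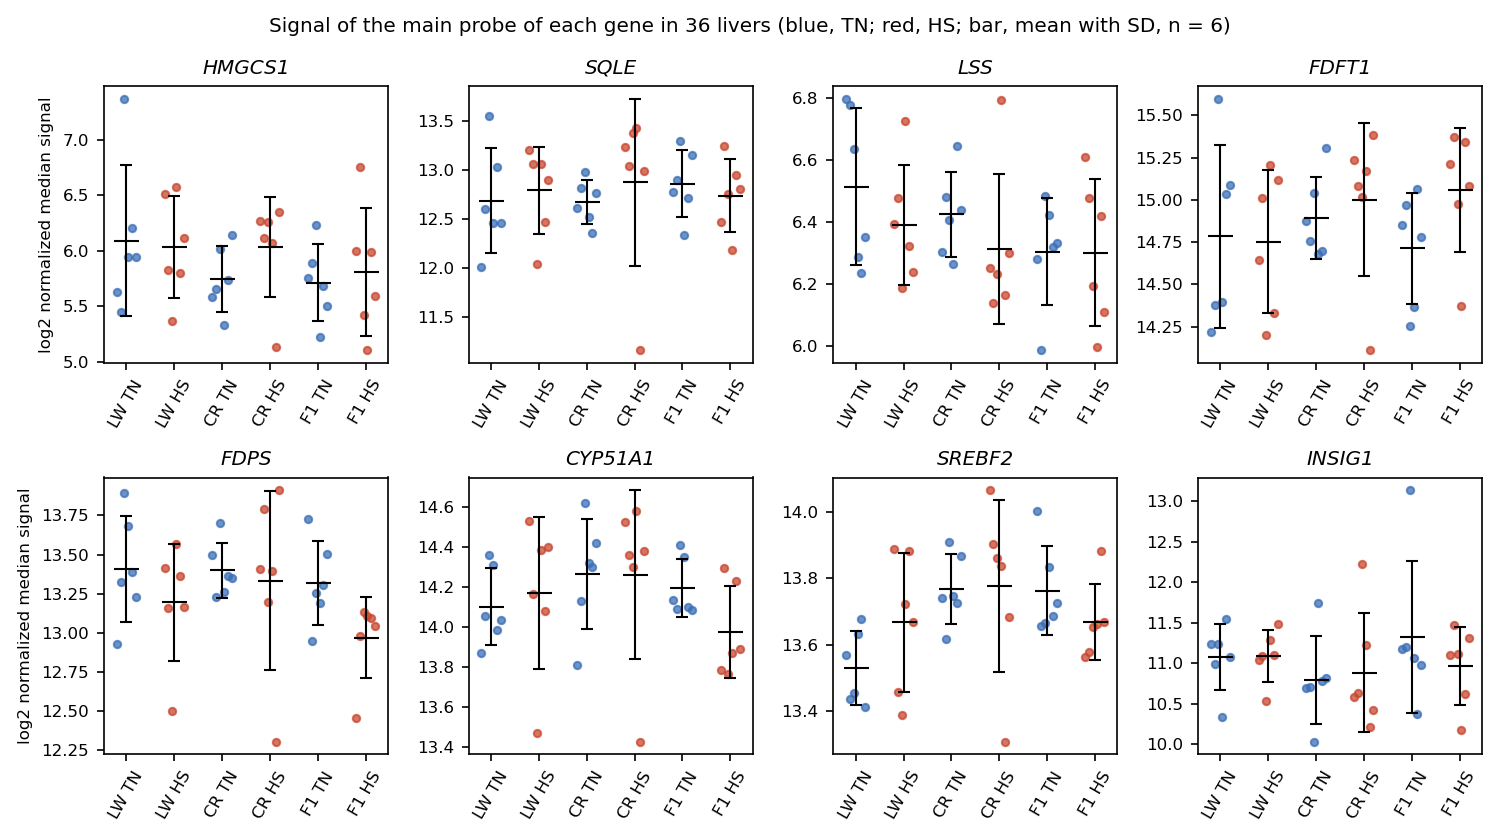
Log2 normalised median signal (y axis) of the main probe of each of the 8 genes in the 6 groups (x axis), with a point per pig and the mean with SD for n = 6. TN and HS points overlap in every breed for most genes, and CR HS holds a single low point for HMGCS1, SQLE, FDFT1, FDPS, CYP51A1 and SREBF2.

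Within breeds, limma called 0 of 20 probes in LW, in CR and in F1, where 0%, 0% and 0.00893% of all kept probes were called (in F1, 0.00446% higher and 0.00446% lower). At an unadjusted p under 0.05 the counts were 0 in LW, 0 in CR and 2 in F1, against 5.11%, 7.4% and 9.3% of all kept probes. The 2 member probes with an unadjusted p under 0.05 in F1, neither of them called, were CYP51A1 probe A_72_P155691, at 10.71 to 11.16 in F1 HS pigs (median 10.83) against 11.05 to 11.73 in F1 TN pigs (median 11.24), and INSIG1 probe A_72_P186291. The CYP51A1 groups overlapped by a narrow margin, and HS minus TN was -0.43 ± 0.20 (SE, adjusted p = 0.499). INSIG1 on A_72_P186291 stood at 9.96 to 10.46 in F1 HS (median 10.20) and at 10.07 to 11.08 in F1 TN (median 10.45), a difference of -0.34 ± 0.15 (SE, adjusted p = 0.452). In F1, 6 of 20 probes were above zero, compared with 14 of 20 in CR and 9 of 20 in LW. The interaction of breed and temperature was called for 0 of 20 probes (0% of all kept probes), with 0 of 20 at an unadjusted p under 0.05, against 3.74%, and a smallest unadjusted p of 0.161 in limma's moderated F test.

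**Figure D2:**
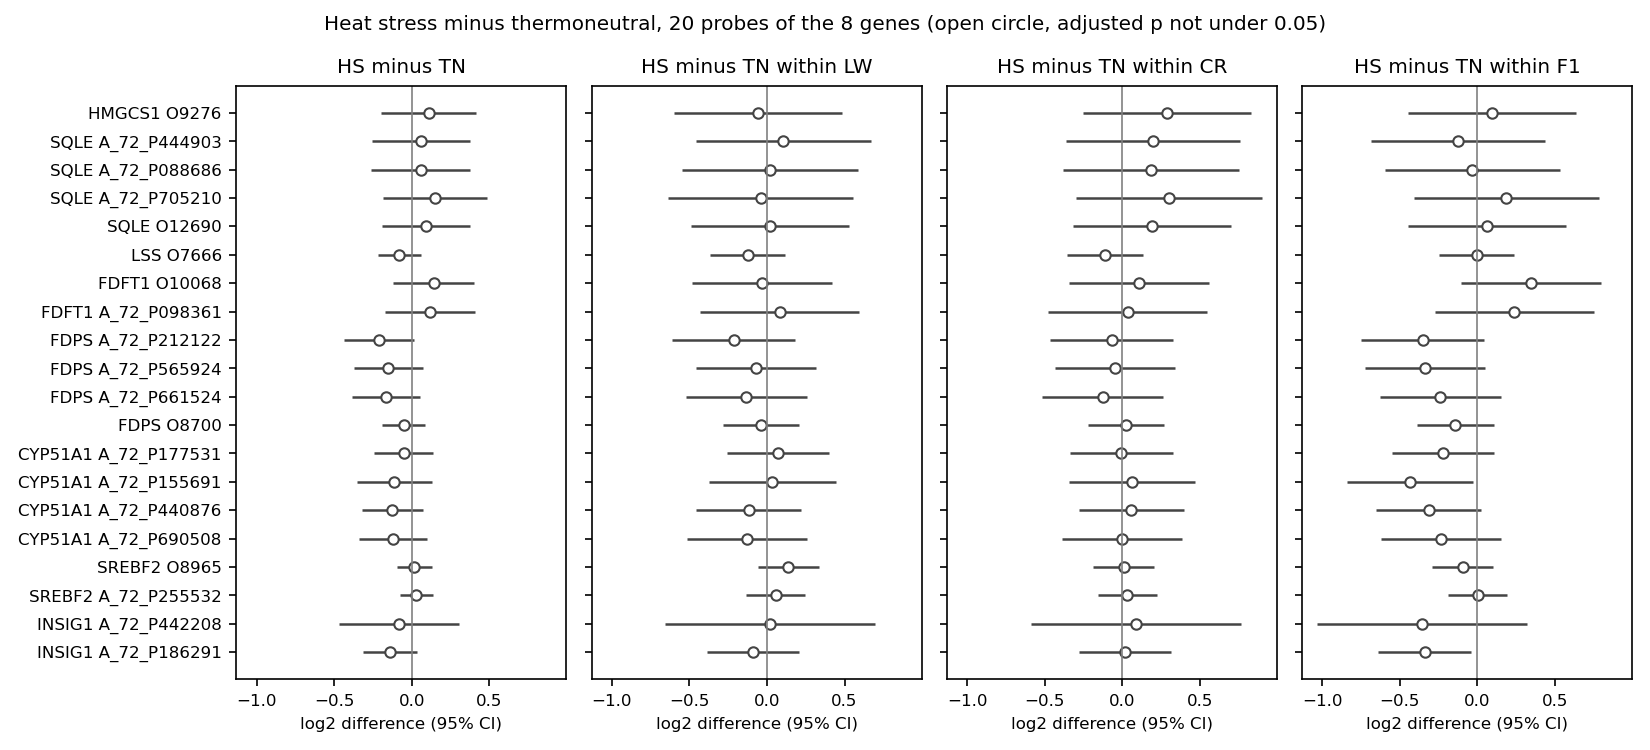
Log2 difference HS minus TN (x axis) with its 95% confidence interval for the 20 probes of the 8 genes (y axis), over all breeds and within LW, CR and F1. Every circle is open because no adjusted p was under 0.05, and the differences over all breeds lie between -0.21 and 0.15.

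For HS minus TN, 0.857% of all kept probes were called (0.435% higher and 0.422% lower). Of 14 measured enzymes of mevalonate and sterol synthesis, 0 were called and the median HS minus TN was -0.0027. Of 9 genes of uptake and intracellular transport, 0 were called. NPC1, which lets cholesterol out of lysosomes, differed by -0.29 ± 0.12 (SE, adjusted p = 0.255). Of 7 genes of esterification and efflux, 0 were called.

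A single gene of sterol sensing passed the test, of 10 measured, and 1 of 8 fatty acid genes did, where 0.857% of all kept probes were called. ERLIN2, a membrane protein of the endoplasmic reticulum that takes part in protein degradation there, rose by 0.31 ± 0.08 (SE, adjusted p = 0.0392). With each array left out in turn, ERLIN2 missed the threshold in 19 of 36 fits. In the fatty acid list, which belongs to the sister factor SREBP1, 7 of 8 genes were below zero with a median of -0.27, and ME1, which supplies NADPH, was called, having fallen by 0.53 (SE 0.14, adjusted p = 0.0493). ME1 missed it in 30 of the 36. With each of the 5 slides left out in turn, both ERLIN2 and ME1 missed it in all 5 fits. Under the other alternatives ERLIN2 missed it in 3 fits and held in 9, and ME1 missed it in 6 and held in 6. ELOVL6, which lengthens fatty acids, differed by -0.65 ± 0.20 (SE, adjusted p = 0.105), and SREBF1 by 0.0009 ± 0.05 (SE, adjusted p = 0.998).

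Between breeds, single probes of 2 genes passed the test, and no gene passed it on all its probes. For CR minus LW, limma called 1 of 20 probes, against 26.5% of all kept probes, and 2 of 20 had an unadjusted p under 0.05, against 37.6%. The called probe was CYP51A1 A_72_P690508, shown above. Its log2 signal ran from 10.39 to 11.66 in LW (median 11.21), from 10.65 to 12.09 in CR (median 11.63) and from 11.06 to 12.05 in F1 (median 11.56). CR pigs lay higher than LW pigs with overlap, and the difference was 0.43 ± 0.13 (SE, adjusted p = 0.0132). The other 3 CYP51A1 probes gave 0.10 to 0.24, none called, and the mean of the 4 probes gave 0.22 (adjusted p = 0.158). Without slide 3 the called probe itself fell short, at 0.30 (adjusted p = 0.181). SREBF2 showed the same kind of disagreement: O8965 was 0.17 ± 0.07 (SE, adjusted p = 0.0604) higher in CR, with log2 signals of 13.31 to 14.07 (median 13.79) against 13.39 to 13.89 in LW (median 13.60), while A_72_P255532 gave -0.09. O8965 was called without CR HS replicate 5, at 0.22 (adjusted p = 0.0103), where 24.3% of all kept probes were called. FDFT1 probes also pointed apart, at 0.18 for O10068 and -0.29 for A_72_P098361, neither called.

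For F1 minus LW, 1 of 20 probes was called, and it was lower in F1, against 18.3% of all kept probes (9.13% higher and 9.22% lower), and 4 of 20 had an unadjusted p under 0.05, against 31.8%. FDPS probe A_72_P661524 ran from 11.10 to 11.76 in F1 pigs (median 11.44) and from 11.11 to 12.24 in LW pigs (median 11.82), with CR between at 10.52 to 12.18 (median 11.66). F1 was lower by -0.37 ± 0.13 (SE, adjusted p = 0.0473), with overlap. All 4 FDPS probes were lower in F1 than in LW, by -0.37 to -0.16, and their mean gave -0.23 (adjusted p = 0.167). Among them, O8700 (-0.19) is of unsettled strand, and it is part of that mean. With each array left out in turn, A_72_P661524 missed the threshold in 24 of 36 fits. Without the 5 arrays that stood apart, 4 of 20 probes were called, all lower in F1, while the share of all kept probes called rose to 32.3%. These arrays were left out for standing apart from their own breed, so the fit without them favours breed calls on any probe. The 4 were FDPS A_72_P661524 at -0.50 and O8700 at -0.27, HMGCS1 O9276 at -0.54 and FDFT1 A_72_P098361 at -0.50. The strands of O8700 and O9276 are unsettled.

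F1 minus CR gave 0 of 20 calls, against 1.5% of all kept probes, with 1 of 20 at an unadjusted p under 0.05, against 12.5%. F1 minus the mid-parent value, the mean of LW and CR, gave 0 of 20, against 1.13%, with 3 of 20 at an unadjusted p under 0.05, against 15.2%. The smallest of these belonged to INSIG1 A_72_P186291, which was 0.26 ± 0.09 (SE, unadjusted p = 0.00684, adjusted p = 0.151) above the mid-parent value. Its log2 signal ran from 9.96 to 11.08 in F1 (median 10.36), from 9.62 to 10.61 in CR (median 10.09) and from 9.99 to 10.22 in LW (median 10.14). LW pigs were close together on this probe, with an SD of 0.08 (n = 12), compared with 0.29 in CR and 0.36 in F1. Without the 5 arrays that stood apart, 2 of 20 probes were called against the mid-parent value, while the share of all kept probes called rose to 17%. They were INSIG1 A_72_P186291 at 0.27 and FDPS O8700, of unsettled strand, at -0.22.

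**Figure D3:**
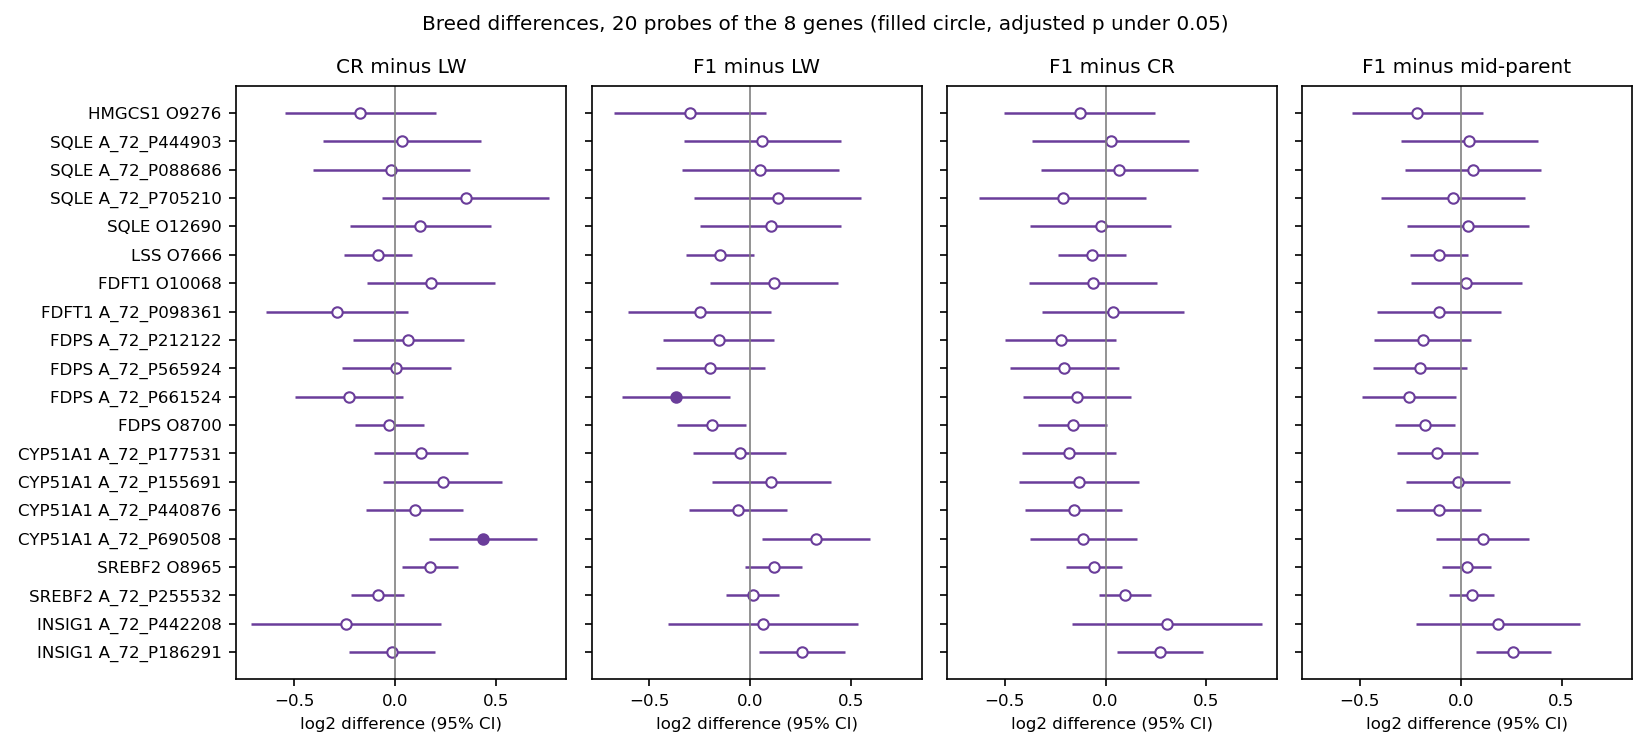
Log2 difference between breeds (x axis) with its 95% confidence interval for the 20 probes of the 8 genes (y axis), with F1 also set against the mean of LW and CR. The filled circles are the called probes, CYP51A1 A_72_P690508 in CR minus LW at 0.43 and FDPS A_72_P661524 in F1 minus LW at -0.37.

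Some related genes passed the test between breeds. In CR minus LW, 4 of 14 synthesis enzymes were called, a share near the 26.5% of all kept probes. There 3 of 8 fatty acid genes were called higher, and of 9 uptake genes 1 higher and 2 lower. Lower calls were 1 of 10 sensing and 2 of 7 efflux genes. In F1 minus LW, where 18.3% of all kept probes were called, 2 of 8 fatty acid genes were higher. There 1 of 14 synthesis and 1 of 7 efflux genes were lower. Of the 9 uptake and of the 10 sensing genes, 1 each was higher and 1 lower. In F1 minus CR (1.5%), 1 of 10 sensing genes was higher. No list was tested as a set. Among the synthesis enzymes, MVK, the kinase of mevalonate (0.35), and TM7SF2, which acts on a sterol double bond (0.21), were higher in CR. HSD17B7, which acts on a sterol ketone (-0.39), was lower in CR, and it was also called lower in F1 than in LW. Of the sensing genes, ERLIN2 was called lower and SCAP higher in F1 than in LW. INSIG2, the other INSIG protein, was lower in CR by -0.77 ± 0.16 (SE, adjusted p = 0.000623) and was higher in F1 than in CR by 0.63 (adjusted p = 0.0337). LIPA, the lysosomal lipase that frees cholesterol from its esters, was higher than in LW by 0.76 ± 0.10 in CR (SE, adjusted p = 9.71e-07) and by 0.47 ± 0.10 in F1 (SE, adjusted p = 0.00152). MYLIP, a ubiquitin ligase, was lower by -0.43 in CR and -0.28 in F1, and VLDLR, a lipoprotein receptor, by -0.45 in CR. Among genes of fatty acid synthesis, FASN was higher by 0.59 in CR and 0.53 in F1, and ELOVL6 by 0.71 in CR and 0.76 in F1, while ACACA was higher by 0.54 in CR. With each array left out in turn, MYLIP in F1 minus LW missed the threshold in 15 of 36 fits and HSD17B7 in F1 minus LW in 13. INSIG2 in F1 minus CR missed it in 11, and the other calls named here in 0 to 4. With each of the 5 slides left out in turn, these calls of MYLIP, HSD17B7 and INSIG2 missed it in 3, 4 and 4 fits. The others missed it in 0 to 3. CR minus LW and F1 minus LW share the LW pigs. Markers of other liver cells also moved with breed, where 12.9% of all kept probes were called lower in CR than in LW and 9.22% lower in F1 than in LW. Of the markers, 4 of 5 endothelial, 3 of 5 Kupffer cell, 4 of 7 lymphocyte and 3 of 3 neutrophil markers were lower in CR than in LW, as were 2 of 8 hepatocyte and 1 of 4 adipocyte markers, while 1 of 5 cholangiocyte markers was higher. In F1 minus LW, 3 of 5 endothelial, 3 of 5 Kupffer cell, 3 of 7 lymphocyte, 3 of 3 neutrophil, 1 of 4 adipocyte and 1 of 6 stellate cell markers were lower. No erythroid marker was called in either comparison. Nor was a stellate cell marker in CR minus LW, or a hepatocyte or cholangiocyte marker in F1 minus LW. The summed linear signal of the neutrophil markers was 431 to 606 in LW groups and 235 to 295 in CR and F1 groups. The neutrophil markers were dim, at mean log2 signals of 6.055 to 6.999. The sum for endothelial markers was 31600 to 36390 in LW and 22780 to 32000 in CR and F1. Their part in the breed differences was not tested.

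On the main probes of 6 of the 8 genes, pigs of the same group were farther apart than on most probes of the array. The SD within groups was 0.61 for INSIG1, 0.51 for SQLE and 0.49 for HMGCS1 on their main probes, above 98.2%, 96.7% and 96.4% of kept probes, where the median SD was 0.19. FDFT1 (0.40), FDPS (0.35) and CYP51A1 (0.29) were also above 93.5%, 90.1% and 82.7% of probes. LSS (0.21) and SREBF2 (0.17) were near the middle. The second INSIG1 probe, A_72_P186291, had a smaller SD of 0.26, above 76.3% of probes, and FDPS O8700 one of 0.21, above 61.1%. The other kept probes of SQLE, FDFT1 and CYP51A1 were above 84.0% to 97.3% of probes. Each pig had 1 array, so animal and array cannot be told apart in this SD.

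These deviations ran together for part of the set. After the mean of each group was removed, Pearson's r over 36 pigs was 0.78 between HMGCS1 and SQLE (Spearman's rho 0.74), 0.75 between HMGCS1 and FDFT1 (rho 0.68) and 0.74 between SQLE and CYP51A1 (rho 0.62). The first and second of these rest on O9276, the HMGCS1 probe of unsettled strand. SQLE and FDFT1 had r = 0.72 (rho 0.54), and FDPS and CYP51A1 r = 0.66 (rho 0.45). The median over the 28 pairs was 0.38, with a range from -0.05 to 0.78, and 11 pairs were above 0.5. The points share array, slide and normalisation, so these are descriptions. LSS had an r of 0.33 or lower with each of the other genes, and INSIG1 of 0.42 or lower. Set against the mean of the other 7 genes, r was 0.87 for SQLE, 0.81 for CYP51A1 and 0.77 for HMGCS1, but 0.25 for LSS and 0.25 for INSIG1.

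A few pigs stood far from their group means. CR HS replicate 5 had the lowest value of its group for 7 of the 8 genes and for 17 of the 20 probes, with SQLE at 11.16 against 12.99 to 13.43 in the other 5 CR HS pigs. On the log2 scale, this pig lay at -1.03 from the group mean for FDPS, -0.90 for HMGCS1, -0.89 for FDFT1 and -0.84 for CYP51A1. LW HS replicate 3 was below its group mean for 8 of 8 genes. LW TN replicate 3 was high, with HMGCS1 1.28 and SQLE 0.87 above the group mean. LW HS replicate 3 and CR HS replicate 5, the lowest pigs for the mean of the 8 genes, also had the most spots well above background of the 36 arrays, at 44025 and 43640, and the part of this measure in their low values was not tested. CR HS replicate 5 had a mean correlation with its group of 0.9889 against 0.9879 to 0.9912 for the others.

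Without CR HS replicate 5 the median pairwise r was 0.29, and without it and LW HS replicate 3, the 2 pigs farthest from the median of the members' mean, it was 0.23 with 4 pairs above 0.5. HMGCS1 and SQLE kept r = 0.75 and HMGCS1 and FDFT1 r = 0.67 over these 34 pigs. SQLE and CYP51A1 came to 0.47 and FDPS and CYP51A1 to 0.30. Against the mean of the other 7 genes, r went from 0.46 to -0.01 for SREBF2, from 0.606 to 0.215 for FDPS and from 0.617 to 0.413 for FDFT1. For HMGCS1 it went from 0.772 to 0.783. These pigs were picked by the mean of the same genes, which by itself favours a lower r without them. Across slides, r was computed again with slide means removed, and the median was then 0.365.

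Over the 36 pigs, r between probes was 0.75 to 0.98 for SQLE, 0.71 to 0.94 for FDPS, 0.60 to 0.89 for CYP51A1, 0.80 for FDFT1 and 0.50 for INSIG1. The SREBF2 probes had r = -0.28, so the values of this gene are uncertain.

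**Figure D4:**
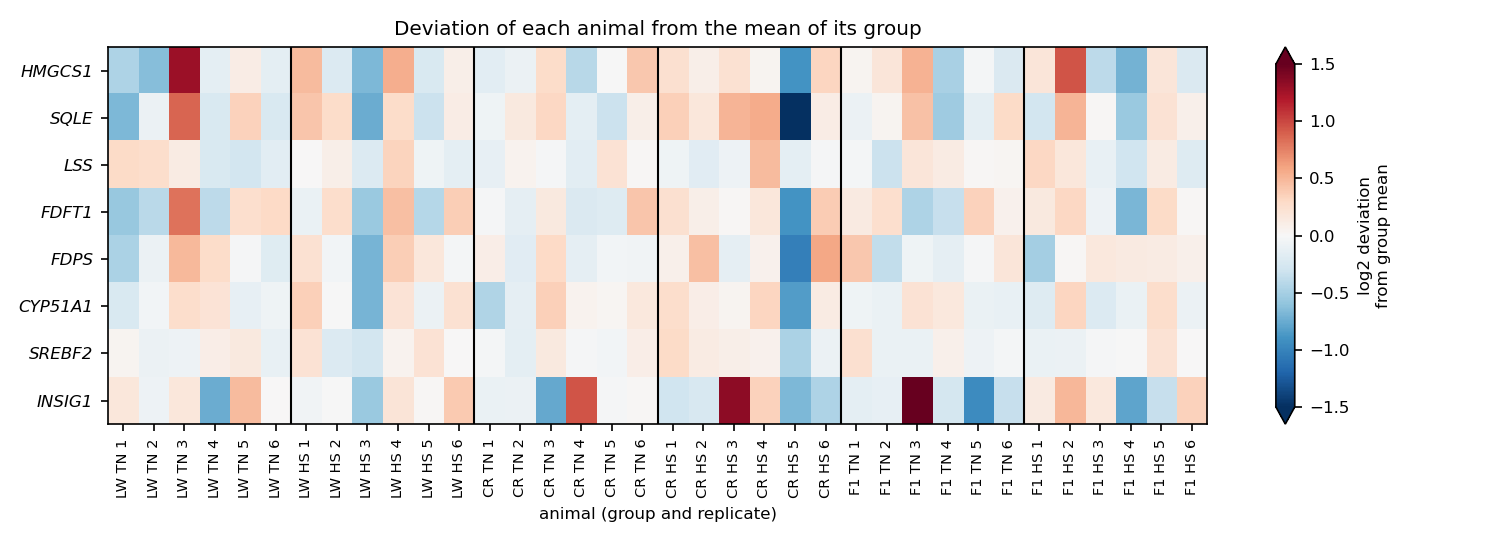
Deviation of each pig (x axis, by group and replicate) from the mean of its group on the log2 scale (colour) for the main probes of the 8 genes (y axis). CR HS 5 and LW HS 3 are blue across nearly all genes and LW TN 3 is red for HMGCS1, SQLE and FDFT1, while INSIG1 varies in other pigs. The colour scale ends at 1.5, and SQLE in CR HS 5 lies beyond it.

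Among 10512 other named genes, r with the mean scaled deviation of the 8 genes was among the highest for ACAT2 (0.81), MSMO1 (0.79), NSDHL (0.78) and IDI1 (0.77). These condense acetyl-CoA, act on sterol methyl groups and isomerise isopentenyl diphosphate. NPC1 (0.74), ACLY (0.72), YWHAG (0.69) and STARD8 (0.69) were also among the 10 highest. Of those 10 genes, 8 were in the lists of related genes, and the median r over all genes was 0.02, with 5th and 95th percentiles of -0.38 and 0.38. Without the 2 farthest pigs r was 0.69 for ACAT2, 0.72 for NSDHL, 0.74 for NPC1 and 0.77 for ACLY. It was lower for MSMO1 (0.638), IDI1 (0.615), YWHAG (0.590) and STARD8 (0.571).

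The lists differed in this measure. The 14 synthesis enzymes had a median r of 0.66, with PMVK lowest at -0.09. The 9 genes of uptake and transport had a median of 0.17, with NPC1 at 0.74 and MYLIP lowest at -0.06. The 8 fatty acid genes had a median of 0.31, with ACLY (0.72) and PNPLA3 (0.65) high and ACACA (-0.16) and ELOVL6 (-0.16) low. The 10 genes of sterol sensing had a median of -0.17, with STARD4, a carrier of cholesterol, at 0.56 and SCAP at -0.28. The 7 genes of esterification and efflux had a median of 0.11.

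**Figure D5:**
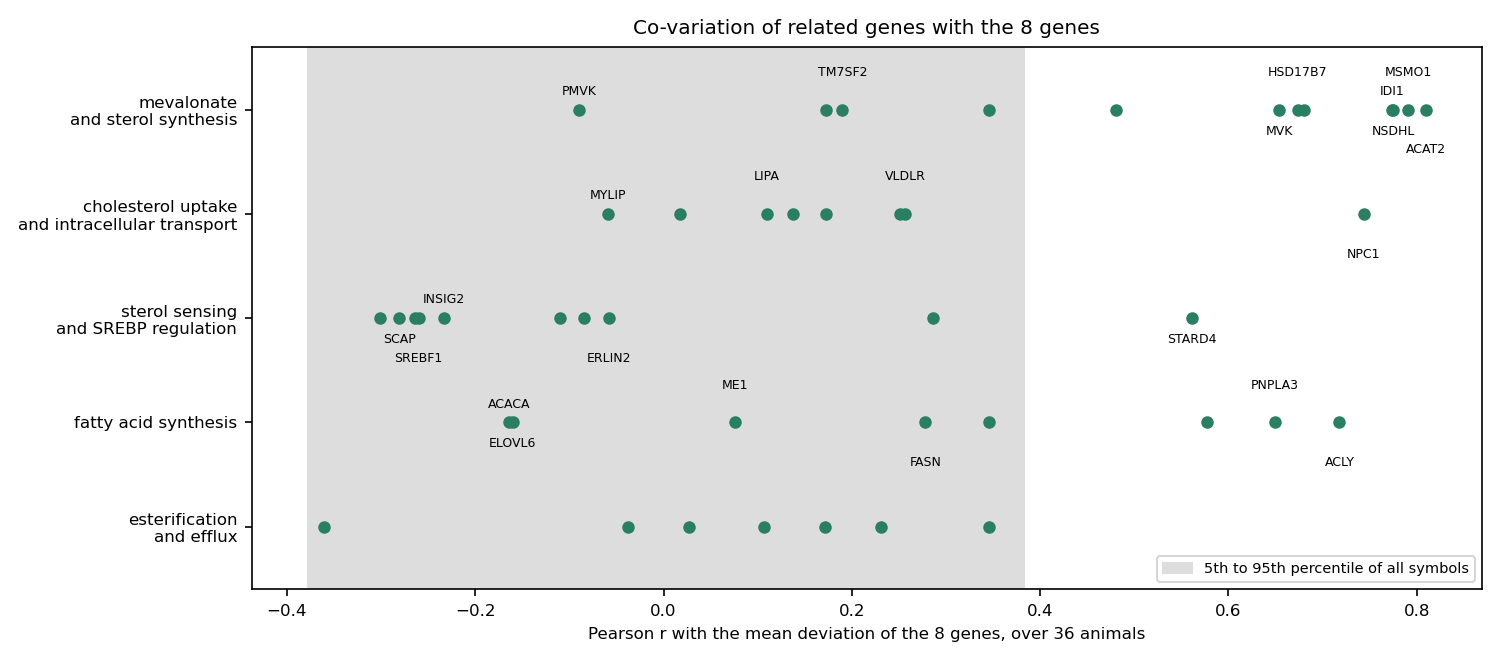
Pearson's r (x axis) of 45 related genes with the mean deviation of the 8 genes over 36 pigs, by list (y axis), with a point per gene. The grey band spans the 5th to 95th percentile of all named genes (-0.38 to 0.38), and 10 of the 45 related genes plotted are above 0.6, with ACAT2 the farthest right at 0.81. Genes named in the text carry their symbol.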

How the data were processed

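Liver RNA of 36 pigs was hybridised to 1-colour Agilent pig arrays on 5 slides, with 1 scan per slide. The authors deposited a scanner table per array, made with Agilent Feature Extraction 10.10.1.1, whose signals are spot intensity values that were not normalised between arrays. The authors also deposited a table of log2 values for 42051 probes, quantile normalised per their methods, which was used as an alternative. Its values appeared centred per probe, since the 5th and 95th percentiles of the probe means were 7.603 and 7.728. Its column medians were 7.66. Groups came from the sample labels, and replicate numbers only name the pigs.

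Median spot signals were log2 transformed and quantile normalised over the 60306 non-control spots, a reverse of the order in the study's methods. The 107 non-uniform spots were set as missing, none of them in a probe of the 8 genes. Probes well above background on at least 6 arrays were kept, 44796 of 60305 (74.3%). Probes were named from the array's gene name, transcript accession or description through the RefSeq table of Sscrofa11.1. Linear models were fitted per probe with limma (version 3.58.1, under R 4.3.3) and two-sided moderated tests were adjusted by Benjamini-Hochberg over all kept probes at a threshold of 0.05, with breed and temperature as fixed effects, or with 6 group means for the within-breed contrasts and the interaction. Pen, slaughter day, father and mother, which the study's model holds, are not in the labels and were not used. Array number limits the precision.

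All kept probes of the 8 genes were reported. Other genes were named from those called, the 3 largest differences of their list, and the 10 most like the 8 genes, and not all of these are named. The related genes were 5 lists: mevalonate and sterol synthesis, sterol sensing and SREBP regulation, cholesterol uptake and intracellular transport, fatty acid synthesis, and esterification and efflux. The 8 genes, the lists and the alternatives were chosen with earlier results of these data known. Deviations from group means were correlated over pigs with no test. The fit was tested on simulated data. Alternatives were the background correction, scaling, order of normalisation, the filter, slide as a block, array weights, no breed term, a trended and robust spread, the mean of a gene's probes, the deposited log2 table, and leaving out arrays or slides. Leaving out CR HS replicate 5, each pig in turn or the 2 farthest pigs from the correlations was added after the data were seen. A few related genes are counted in the lists and are not reported here by name.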

Additional observations from a re-analysis of the deposited data

Results flagged for a closer look

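In 54 checks of single pigs against their 5 group mates, made on the main probes of the 8 genes and on their mean deviation, 9 found a pig far out by the gap to its nearest neighbour as a share of the group's range, where chance alone gives about 2.7. The checks are not independent, because the genes were measured on the same arrays. CR HS replicate 5 was lowest for HMGCS1 (gap over range 0.768), SQLE (0.808), FDFT1 (0.712), CYP51A1 (0.757) and the mean of the 8 genes (0.824). For LSS, CR HS replicate 4 was highest (0.752). For FDPS, F1 HS replicate 1 was lowest (0.779). For SREBF2, F1 HS replicate 5 was highest (0.668). For INSIG1, F1 TN replicate 3 was highest (0.702), at a log2 signal of 13.14, and this array is also among the 5 that stood apart from their breed on the first principal component. The first principal component did not set CR HS replicate 5 apart from its breed, its count of spots well above background was the highest but 1 of the 36 arrays, and why its cholesterol synthesis genes were low was not tested.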

How the results depend on the processing

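For HS minus TN, within each breed, for the interaction and for F1 minus CR, 0 probes of the 8 genes were called under every alternative run, including each array or slide left out. For CR minus LW the count of 1 became 2 with slide as a block, with array weights and without slide 5 (SREBF2 O8965 was added), and 0 without slide 3 and with the mean of each gene's probes. Leaving out 1 array gave 1 to 2. For F1 minus LW the count of 1 became 0 with the processed signal, normexp, no filter, the mean of each gene's probes and without slide 2, 3 or 4, became 2 with array weights, and was 4 without the 5 arrays that stood apart, where calls over all probes went from 8220 to 14488 (32.3%). Leaving out 1 array gave 0 to 2. For F1 minus mid-parent it was 2 without those 5 arrays, where calls over all probes went from 504 to 7622 (17%). The cause was not tested.

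The sign of some small HS minus TN differences turned. SQLE came to -0.0067 and SREBF2 to -0.0047 without slide 1, CYP51A1 to 0.041 without slide 3, and SREBF2 to -0.028 with the processed signal and -0.018 without slide 4. INSIG1 came to 0.015 with array weights, 0.0098 without the 5 arrays and 0.059 without slide 4. Leaving out 1 array gave -0.0005 to 0.0469 for SREBF2 (below zero without CR HS replicate 1 or LW HS replicate 1, -0.0002) and -0.1721 to 0.039 for INSIG1 (above zero without F1 TN replicate 3). The median pairwise r of the 8 genes was 0.30 with Spearman's rho and 0.232 without the 2 farthest pigs, CR HS replicate 5 and LW HS replicate 3, and leaving out 1 pig gave 0.29 to 0.43. Of the 10 genes most like the 8, between 7 and 10 were in the lists when 1 pig was left out.

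Promoter motifs of the 8 genes were not analysed here. No paired analysis was possible because the labels carry no replicate numbers shared between groups. Dim probes (HMGCS1 O9276, LSS O7666, FDPS O8700) limit what small differences can show.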

Other observations

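A probe outside the 8 genes, A_72_P308228, is described in the array's table as similar to a part of bovine INSIG1 and was not counted as an INSIG1 probe. Its mean log2 signal was 10.25, and its deviations from group means had r = 0.70 over 36 pigs with the main INSIG1 probe, which is above the r of 0.50 between the INSIG1 probes. HS minus TN was -0.10 (limma, adjusted p = 0.905) and F1 minus LW 0.28 (adjusted p = 0.502).

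Of the 24 named genes with an r above 0.6 with the mean of the 8 genes, 12 were in the lists of related genes. KLB (0.69), a co-receptor of FGF21 and related hormones, AACS (0.68), a ligase of acetoacetate that feeds sterol synthesis from ketone bodies, WDR37 (0.68) and PTGES3 (0.66) were among the others and were named after their values were seen. Without the 2 farthest pigs r was 0.55 for KLB and 0.48 for AACS. Over the 36 pigs, r between the mean of the 8 genes and the number of spots well above background was -0.36 (Spearman's rho -0.22), and the part of this array measure in the co-variation was not tested.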
